A study of Mus musculus with 10 samples.

Results

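The loci described here are those of Id1, Id2 and Id3, genes for inhibitors of DNA binding, in mouse embryonic fibroblasts that received a myogenic factor. Their members are the peaks that overlap 3 windows of 60 kb in the mouse build mm9: chromosome 2 from 152535000 to 152595000 for Id1, chromosome 12 from 25750000 to 25810000 for Id2 and chromosome 4 from 135670000 to 135730000 for Id3. These windows held 90 of the 241128 peaks in 7 deposited lists: 12 of 45015 MyoD peaks, 24 of 93787 Myf5 peaks, 20 of 36864 peaks of acetylated histone H4 (H4Ac) in cells with MyoD, 10 of 32041 H4Ac peaks in cells with Myf5 and 24 of 31120 H4Ac peaks in cells with GFP. Neither mock list, in which the MyoD or the Myf5 antibody was used on cells with GFP, had a peak in any of the windows.

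All cells had the genotype MyoD-/-; Myf5-/-, those with GFP included. They were transduced with MyoD, with Myf5 or with GFP, given differentiation medium 24 h later and harvested after 20 h in it. MyoD and Myf5 were precipitated from crosslinked chromatin and H4Ac from native chromatin cut with micrococcal nuclease. Each of these groups had 1 list, and by their titles the MyoD and the Myf5 list each covered 2 replicates together, so no spread between replicates could be computed and no p-value is given. Coverage is the authors' maximum number of reads over a peak. It was ranked within a list only, since no scaling between lists and no sequencing depth is given in the sources used here. Where coverages of different lists stand side by side below, they are unscaled, and a lower value alone does not show less acetylation. The peak lists hold no expression values, so neither the labelled cell type nor the levels of the Id transcripts were tested.

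Id proteins belong to the helix-loop-helix family but lack the basic region that touches DNA. They pair with E proteins, the partners that MyoD and Myf5 need to bind the E-box motif CANNTG, and so hold back the activity of the myogenic factors. The Id genes are known targets of bone morphogenetic protein signalling and are known for high expression in proliferating myoblasts. H4Ac marks active promoters and enhancers.

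The promoters are shown because the factors bound within all 3 windows and E-boxes are the motif they recognise. RefSeq sequence (build GRCm38.p6) was matched by symbol for Id2 and Id3, but not for Id1. The lines give the 250 bases before each start, 5′ to 3′ on the strand of the gene, with every CANNTG in capitals. Id2 lies on the minus strand, at chr12:25096093-25096342, and Id3 on the plus strand, at chr4:136143572-136143821.
Id2: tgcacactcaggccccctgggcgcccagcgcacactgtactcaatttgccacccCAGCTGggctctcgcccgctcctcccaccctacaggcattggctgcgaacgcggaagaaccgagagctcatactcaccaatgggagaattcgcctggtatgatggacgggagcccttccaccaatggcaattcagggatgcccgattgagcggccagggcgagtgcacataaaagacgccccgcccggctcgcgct
Id3: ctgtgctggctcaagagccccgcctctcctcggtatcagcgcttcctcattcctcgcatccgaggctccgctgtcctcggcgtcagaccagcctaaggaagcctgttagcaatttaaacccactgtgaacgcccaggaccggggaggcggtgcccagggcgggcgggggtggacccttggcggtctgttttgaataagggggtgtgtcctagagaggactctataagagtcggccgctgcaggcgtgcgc

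The Id2 stretch holds 1 E-box, a CAGCTG that begins 196 bases before the start, and the Id3 stretch holds none. CANNTG, which reads the same on both strands apart from its middle letters, occurs in 66.2% of the 32851 RefSeq promoter stretches of this length, and CAGCTG, a form of it, in 13.0%. Neither Id promoter holds CAGGTG or its reverse complement CACCTG, which 17.2% of the stretches hold, nor CACGTG, which 6.02% hold. In the other promoters searched, counted over the same 250 bases, Id4 had 0 E-boxes, Tcf3 had 1, the 3 Tcf12 promoters had 1, 1 and 0, and Smad6 had 0. Id4 is the remaining Id gene, Tcf3 and Tcf12 encode E proteins, and Smad6 is an inhibitor and target of bone morphogenetic protein signalling. These coordinates belong to another build than the peaks, so the sequences could not be laid over the peaks, and factor binding was not read from these letters. By the order of gene starts in GRCm38.p6, the protein-coding genes before and after are Mcts2 and Cox4i2 for Id1, Kidins220 and Rnf144a for Id2, and Rpl11 and E2f2 for Id3. This order is not one of distance. In that annotation other genes lie within 30 kb of Id1 and of Id3, while none lies within 30 kb of Id2. The protein-coding ones are Bcl2l1, Cox4i2 and H13 for Id1 and E2f2 for Id3. Peaks toward the edges of those windows may therefore lie nearer to another gene.

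**Figure D1:**
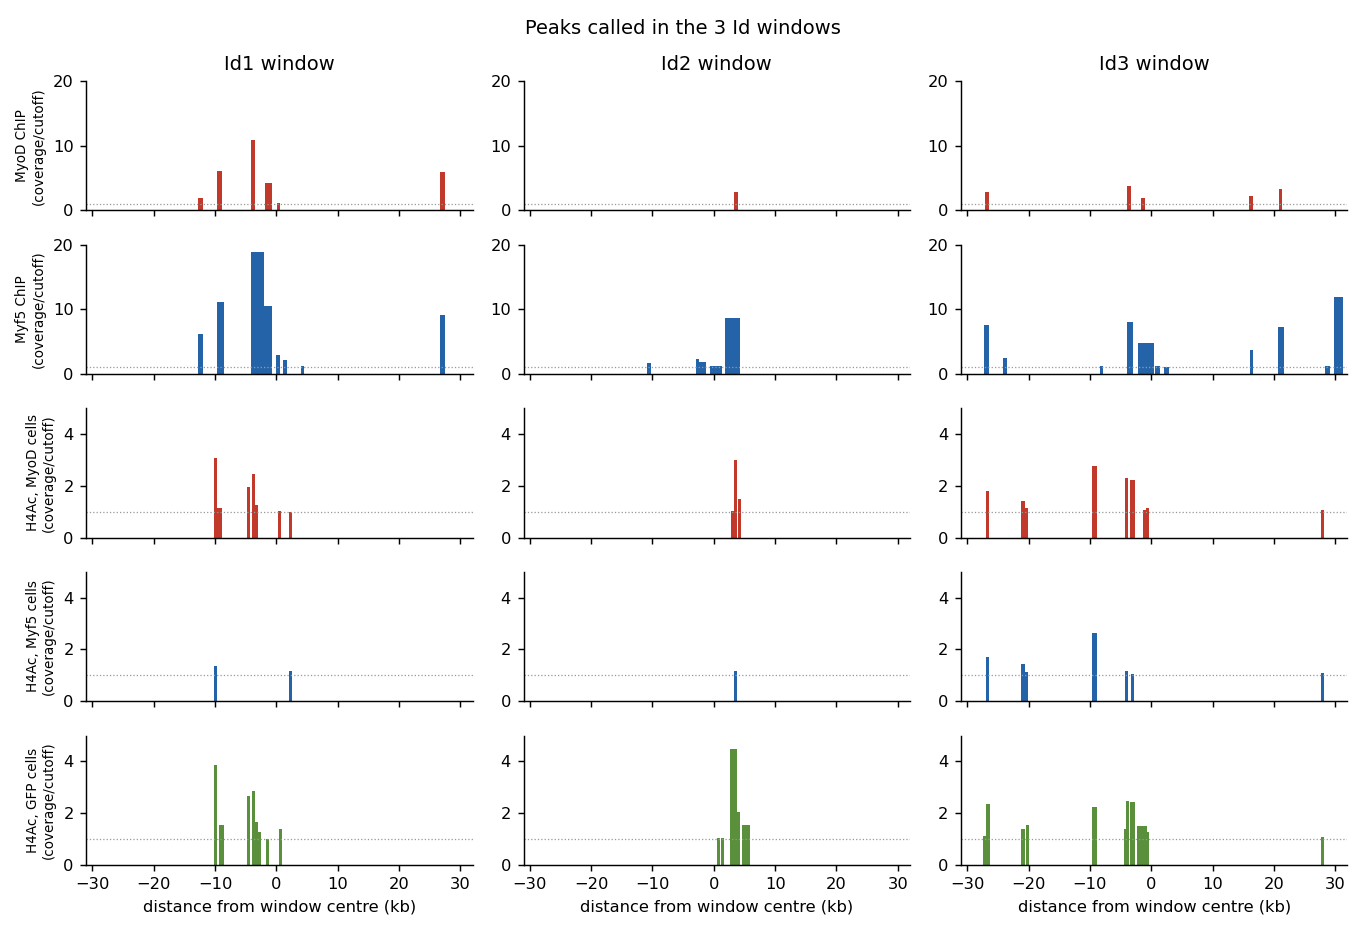
Peaks of 5 lists in the Id1, Id2 and Id3 windows (columns), by distance from the window centre in kb; bar height is the authors' maximum coverage over the coverage cutoff of that peak, the dotted line marks 1, and bars are drawn no narrower than 0.5 kb. Scales differ between the factor rows (to 20) and the H4Ac rows (to 5). In cells with Myf5 the H4Ac row is nearly empty in the Id1 and Id2 windows, with 2 and 1 peaks, and holds 7 in the Id3 window.

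MyoD bound all 3 windows, most densely that of Id1. There were 6 MyoD peaks in the Id1 window, 1 in the Id2 window and 5 in the Id3 window. Among 43964 windows of 60 kb laid end to end along the chromosomes, stretches that cannot be mapped included, 2.55% held 6 or more MyoD peaks, 4.73% held 5 or more and 44.4% held at least 1. The Id1 and Id3 windows were thus dense in MyoD peaks and the Id2 window was not. Myf5 had 8 peaks in the Id1 window, 5 in the Id2 window and 11 in the Id3 window. Of the same windows, 5.96% held 8 or more Myf5 peaks, 18.1% held 5 or more and 1.64% held 11 or more.

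The strongest factor site of the 3 windows lay in the Id1 window. The MyoD peak at 152560840 to 152561518 on chromosome 2 had a coverage of 294 against a cutoff of 27 and ranked 1056 of 45015, in the top 2.35% of its list. The Myf5 peak over it, at 152560806 to 152562982, had a coverage of 511 against a cutoff of 27 and ranked 1903 of 93787, in the top 2.03% of its list. Ranks in lists of unequal length show no change from one factor to the other. The control coverage at these peaks was 4 for MyoD and 12 for Myf5.

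In the Id1 window 2 more MyoD peaks were among the strongest 10% of their list, at 152555307 to 152556135 (coverage 170, top 7.70%) and at 152591751 to 152592489 (165, top 8.15%). The Myf5 peaks over them had coverages of 323 and 264, in the top 5.05% and 7.18% of the Myf5 list. The site at 152555307 and the strongest one lay on the lower-coordinate side of the window centre, while the site at 152591751 lay 27.1 kb beyond it. A further Myf5 peak in the top 10%, at 152563006 to 152564341, had a coverage of 304 (top 5.62%), and the MyoD peak there had 120 (top 14.2%). The remaining MyoD peaks of the window were weaker, with coverages of 52 and 32. Myf5 had coverages of 179 and 84 at those places.

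The Id2 window held a single MyoD site. Its peak at 25783331 to 25784016 on chromosome 12 had a MyoD coverage of 81 (top 25.7% of the list), and the Myf5 peak at 25781854 to 25784280 had a coverage of 252 (top 7.78%). The other 4 Myf5 peaks of the window, with coverages of 34 to 62, had no MyoD peak.

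The Id3 window held MyoD peaks of middling rank. Their coverages were 75, 100, 52, 61 and 87 from low to high coordinate, in the top 28.7%, 19.0%, 46.2%, 37.9% and 23.1% of the list. None was among the strongest 10%. The strongest of them, at 135696093 to 135696756 on chromosome 4, lay under a Myf5 peak with a coverage of 215 (top 9.98%). The strongest Myf5 peak of this window, at 135729749 to 135731287, had a coverage of 379 (top 3.79%) and ran past the window's end. Its MyoD counterpart, with a coverage of 177 (top 7.13%), began 0.255 kb outside the window and is not counted among the 12. The nearest MyoD peaks outside the other edges lay 19.4 to 69.6 kb away, so no other edge came close to a MyoD peak.

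Across the windows, 3 of 12 MyoD peaks and 7 of 24 Myf5 peaks were in the top 10% of their lists, which hold 10.0% and 10.1% of all peaks with ties. In all, 11 of 12 MyoD peaks and 16 of 24 Myf5 peaks were above the list median, which was 49 for MyoD and 55 for Myf5. Every one of the 12 MyoD peaks overlapped a Myf5 peak, against 97.5% of the whole MyoD list, so this count is near the background. Of the 24 Myf5 peaks, 13 overlapped a MyoD peak (54.2%, exact 95% interval 32.8% to 74.4%), against 45.9% of the whole list. The 11 Myf5 peaks without a MyoD peak were weak, with coverages of 31 to 65 and a median of 36, and 3 of them were above the list median. Intervals here and below allow for counting error alone, and peaks that lie close together are not independent of each other.

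**Figure D2:**
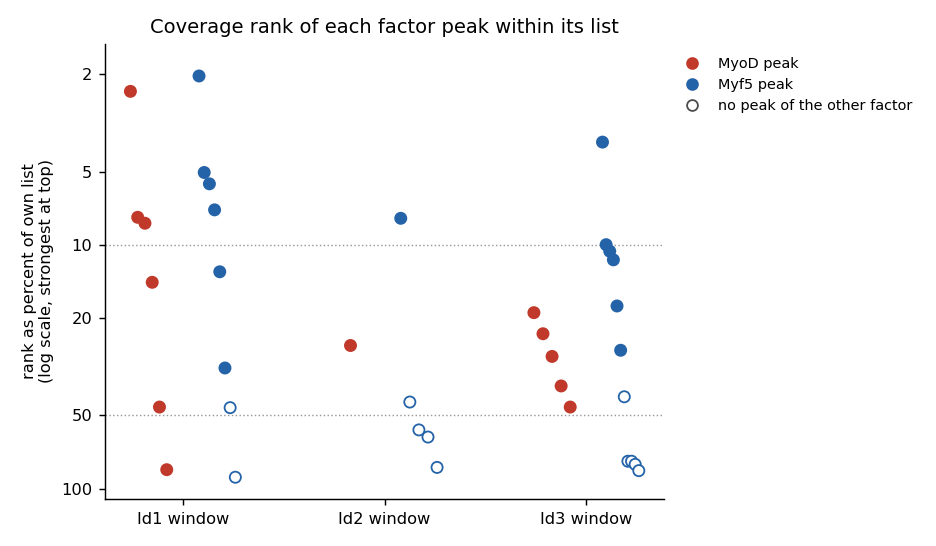
Rank of each MyoD (red) and Myf5 (blue) peak of the 3 windows as a percentage of its own list, on a log axis with the strongest at the top; open circles overlap no peak of the other factor, and dotted lines mark 10% and 50%. The Id1 window holds 3 of the 3 MyoD peaks and 4 of the 7 Myf5 peaks above the 10% line, and all open circles are Myf5 peaks below it.

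The loci carried H4Ac in cells with neither factor. In cells with GFP the Id1 window held 8 H4Ac peaks, the Id2 window 5 and the Id3 window 11, and 0.908%, 3.62% and 0.262% of the windows along the chromosomes held as many or more. The strongest were at 25782638 to 25783752 in the Id2 window, with a coverage of 125 (top 3.09% of the list), and at 152554807 to 152555304 in the Id1 window, with 108 (top 4.49%). Another, at 152561052 to 152561501 in the Id1 window, had 80 (top 9.42%). Those 3 were the GFP peaks of the windows in the top 10%, which holds 10.3% of the list with ties. In cells with MyoD 3 peaks of the windows were in the top 10% (10.3% of that list), and in cells with Myf5 there was 1 (10.2%). Coverage cutoffs at the 24 peaks were 26 to 28 and control coverages 0 to 6.

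H4Ac was called over less of every Id window with either factor than with GFP, least of all with Myf5. In the Id1 window H4Ac peaks covered 2498 bp in cells with MyoD and 825 bp in cells with Myf5, against 4065 bp in cells with GFP. In the Id2 window they covered 988 bp with MyoD and 368 bp with Myf5, against 3222 bp with GFP. In the Id3 window they covered 3426 bp with MyoD and 3277 bp with Myf5, against 5874 bp with GFP. Over the 3 windows together the covered length was 52.5% of that in cells with GFP for MyoD and 34.0% for Myf5. The whole lists differed from this, since they covered 93.1% of the GFP length with MyoD and 114% with Myf5. Of the H4Ac bases of cells with GFP in the windows, 49.1% were also within a peak with MyoD and 30.4% with Myf5, against 68.2% and 72.6% over the whole GFP list. None of these differences has a replicate check.

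**Figure D3:**
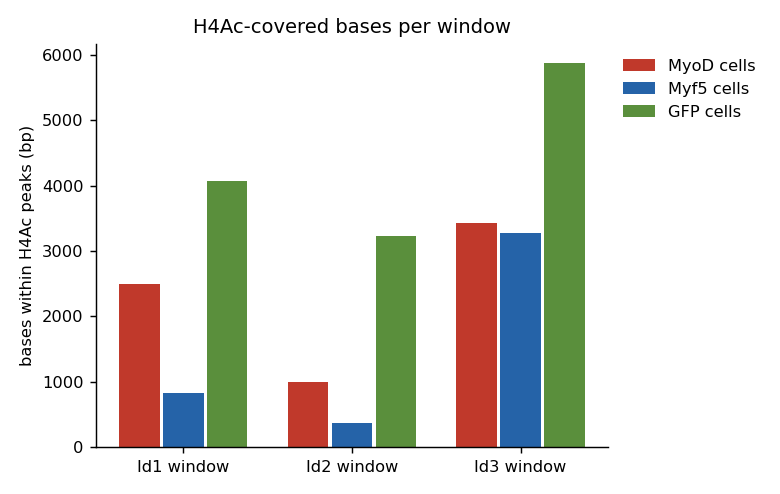
Bases within H4Ac peaks (bp) in each window, as bars for cells with MyoD, Myf5 and GFP (1 list each, no error bars). The lowest bar of each window is that of cells with Myf5, from 368 bp for Id2 to 3277 bp for Id3.

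Counted as peaks, more of the sites of cells with GFP were missing with Myf5 than with MyoD, and 11 of the 14 missing with Myf5 were at Id1 and Id2. A GFP peak is called lost if no H4Ac peak of the other cells overlaps it by at least 1 bp, and a peak of those cells is called gained if it overlaps no GFP peak. With MyoD, 6 of the 24 GFP peaks were lost (25.0%, exact 95% interval 9.77% to 46.7%), against 23.9% of the whole GFP list. With Myf5, 14 of the 24 were lost (58.3%, 36.6% to 77.9%), against 27.2% of the whole list. The MyoD count was near the background and the Myf5 count was above it. By window, the GFP peaks lost with Myf5 were 7 of 8 for Id1, 4 of 5 for Id2 and 3 of 11 for Id3. With MyoD they were 2 of 8, 3 of 5 and 1 of 11. Of the 24, 6 were lost with both factors, a class that makes up 15.4% of the GFP list, 8 with Myf5 only (11.8% of the list) and 0 with MyoD only (8.47% of the list). Cutoffs at the H4Ac peaks of the windows were 22 to 24 with MyoD and 27 to 29 with Myf5, against 26 to 28 with GFP. The 8 lost only with Myf5 had MyoD-cell coverages of 25, 26, 27, 27, 30, 36, 47 and 59. In their bin of GC content the cutoff was 24 with MyoD and 29 with Myf5. Whether the unequal cutoffs account for the difference in losses was not tested.

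Over the whole GFP list the share of lost peaks varied with strength. Among 10 equal classes by coverage, 61.2% of the weakest were lost with MyoD and 49.5% with Myf5, and 0.0964% and 0.675% of the strongest. The Id peaks were therefore also set against peaks of at least a given strength. Such sets, here and below, include all stronger peaks, so their shares can be lower than those at like strength. With Myf5, the class with coverages of 40 to 46 lost 18.1% of its peaks and 4 of its 5 Id peaks. The class of 57 to 78 lost 5.43% and 2 of its 6 Id peaks, and the strongest class 0.675% and 1 of its 3. Of the GFP peaks that reached 1.5 times the cutoff, 1 of 14 in the windows was lost with MyoD and 7 of 14 with Myf5, against 3.39% and 9.03% of the 14052 such peaks in the whole list. Those 7 comprised 4 of 5 in the Id1 window, 2 of 3 in the Id2 window and 1 of 6 in the Id3 window. Losses with Myf5 also varied with base composition over the whole list: 27.7% of the GFP peaks in the bin of 45% to 50% GC and 34.5% of those in the bin of 50% to 55% were lost. All 8 Id1 peaks and 3 of the 5 Id2 peaks were in the bin of 50% to 55%.

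**Figure D4:**
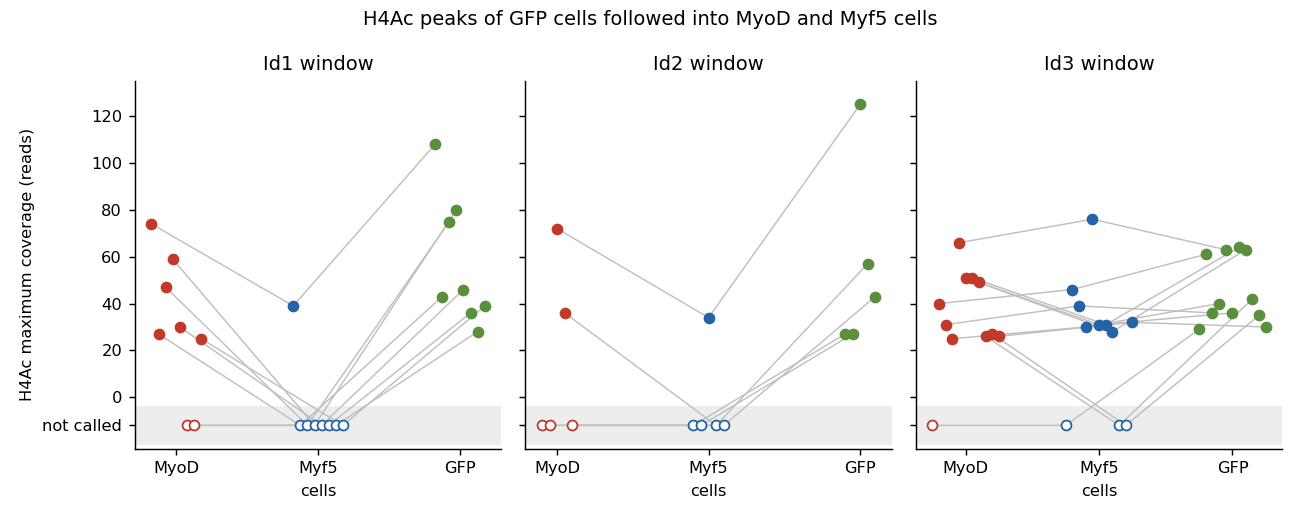
Each H4Ac peak of cells with GFP in the 3 windows (right), joined to the strongest overlapping peak in cells with Myf5 (middle) and with MyoD (left), by maximum coverage in reads; open circles in the grey band had no overlapping peak. Coverage is not scaled between lists, and 1 peak of cells with MyoD or Myf5 can overlap several GFP peaks. In the Id1 and Id2 windows 11 of 13 GFP peaks had no peak with Myf5.

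At the Id1 locus the acetylated sites were called in part with MyoD and hardly at all with Myf5. The H4Ac site under the strongest factor peaks, at 152561052 to 152561501, had a coverage of 59 with MyoD (top 12.2%) and no peak with Myf5, against 80 with GFP. Only 18 of the 3026 GFP peaks with a coverage of 80 or more (0.595%) were lost with Myf5, and in the same bin of GC content 1.29% of 544 were. The site at 152560179 to 152560688, which overlapped no factor peak, had a coverage of 47 with MyoD and no peak with Myf5, against 75 with GFP. Of the 3502 GFP peaks at least that strong, 0.942% were lost with Myf5 and 0.0857% with MyoD, and of the 626 in the same bin of GC content 2.24% were lost with Myf5. The next sites were called with MyoD at coverages of 27, 30 and 25 and not with Myf5, against 43, 46 and 39 with GFP. Among GFP peaks at least as strong in the same bin of GC content, 15.0%, 12.3% and 18.5% were lost with Myf5. The remaining pair, with GFP coverages of 36 and 28, was called with neither factor, and there these shares were 21.6% and 34.5%. Such losses were thus more common over the list than those of the 2 stronger sites.

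A single Id1 site of cells with GFP was still called with Myf5. At 152554807 to 152555304 the coverage was 74 with MyoD (top 7.31% of its list) and 39 with Myf5 (top 38.9%), against 108 with GFP (top 4.49%). Among the 1430 GFP peaks with a coverage of 108 or more, none was lost with Myf5, and 14 (0.979%) had a best overlapping Myf5-cell peak of 39 or lower. For MyoD, 116 of the 1430 (8.11%) had 74 or lower. The H4Ac peak nearest to the window on its lower side, 11.6 to 11.7 kb outside, was called in all 3 populations, with coverages of 96 with MyoD, 92 with Myf5 and 74 with GFP. Those coverages were in the top 3.73% of the list with MyoD, the top 5.46% with Myf5 and the top 11.3% with GFP.

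The gains in the windows all lay at Id1. With MyoD, 2 of 20 peaks were gained (10.0%, exact 95% interval 1.23% to 31.7%), against 30.7% of the whole list. With Myf5, 1 of 10 was gained (10.0%, 0.253% to 44.5%), against 31.9%. The site at 152567174 to 152567428 with MyoD, with a coverage of 22 at a cutoff of 22, was also the Myf5 gain, at 152567180 to 152567563 with a coverage of 31 at a cutoff of 27. No factor peak overlapped it. The other MyoD gain, at 152555308 to 152555474 with a coverage of 27 at a cutoff of 24, lay between neighbouring GFP peaks and under the MyoD peak of coverage 170. The GFP peak of coverage 108 ended just before it, at 152555304. The 2 shared no base, so the MyoD-cell peak counts as gained though it nearly adjoins a GFP peak.

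The Id2 locus had 3 H4Ac peaks with MyoD and 1 with Myf5, against 5 with GFP. The strongest site, at 25782638 to 25783752, was the only site in this window called in all 3 populations, and it lay under the MyoD peak of coverage 81. Its coverage was 72 with MyoD (top 7.81% of its list) and 34 with Myf5 (top 50.6%), against 125 with GFP (top 3.09%). Of the 977 GFP peaks with a coverage of 125 or more, none was lost with either factor, 2 (0.205%) had 34 or lower with Myf5 and 20 (2.05%) had 72 or lower with MyoD. The neighbouring site at 25783897 to 25784270 had a coverage of 36 with MyoD and no peak with Myf5, against 57 with GFP, and 3.07% of the GFP peaks at least that strong, or 5.66% of those in the same bin of GC content, were lost with Myf5. The 3 GFP peaks called with neither factor had coverages of 27, 27 and 43. Among GFP peaks at least as strong in the same bin of GC content, 25.7%, 25.7% and 15.0% were lost with Myf5.

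At the Id3 locus, 2 of the 3 GFP peaks lost with Myf5 lay near the window centre. Around the Myf5 peaks at the centre, the H4Ac site at 135696039 to 135696274 had a coverage of 51 with MyoD and 31 with Myf5, against 64 with GFP. The site at 135696553 to 135697337 had 49 with MyoD and 28 with Myf5, against 63 with GFP. Both had their lowest unscaled coverage with Myf5. Of GFP peaks at least as strong as these, 3.78% and 2.70% had as low a value or none with Myf5, and 17.1% and 15.5% with MyoD. The next 2 sites toward higher coordinates, at 135697682 to 135699252 and 135699289 to 135699456, had coverages of 26 and 27 with MyoD and no peak with Myf5, against 42 and 35 with GFP. These 4 sites all overlapped a Myf5 peak. A weaker GFP peak at 135695678 to 135696031, with a coverage of 36, lay under the same MyoD-cell and Myf5-cell peaks as the one beside it at 135696039.

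Farther out in the Id3 window, 5 of 6 GFP peaks were called in all cells. No test of a difference between these sites and the central ones was made. The site at 135690362 to 135691144, 9.25 kb from the centre and without a factor peak, had a coverage of 66 with MyoD (top 9.61%) and 76 with Myf5 (top 9.02%), against 63 with GFP (top 15.7%). It was the strongest H4Ac peak of the 3 windows in cells with Myf5. The sites at 135678741, 135679560 and 135727902 were also called in all 3 populations without a factor peak, with coverages of 25 to 31 with MyoD and 30 to 39 with Myf5, against 30 to 40 with GFP. At 135673206 to 135673584, under a shared factor site, the coverage was 40 with MyoD and 46 with Myf5, against 61 with GFP. Of GFP peaks at least that strong, 6.79% had as low a value or none with MyoD and 17.3% with Myf5. For the site at 135679560 these shares were 6.25% and 14.2%. Values low among peaks at least as strong were thus found at outer sites with MyoD too. A weak peak beside the site at 135673206, with a GFP coverage of 29, was lost with both.

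Most windows of this size did not lose their H4Ac peaks to the extent seen at Id1 and Id2 in cells with Myf5. Of 1591 windows along the chromosomes with at least 5 GFP peaks, 14.5% lost at least 50% of them with Myf5 and 12.3% with MyoD, and the median loss was 20.0% with each. The Id1 share of 87.5% lost with Myf5 was reached by 4 of the 1591 windows (0.251%) and the Id2 share of 80% by 35 (2.20%), while the Id3 share of 27.3% was reached by 42.9%. With MyoD, the Id1 share of 25.0% was reached by 40.9%, the Id2 share of 60% by 7.17% and the Id3 share of 9.09% by 75.9%. These percentages place the windows among others and are no test, and the windows were not matched for the number, strength or GC content of their peaks.

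**Figure D5:**
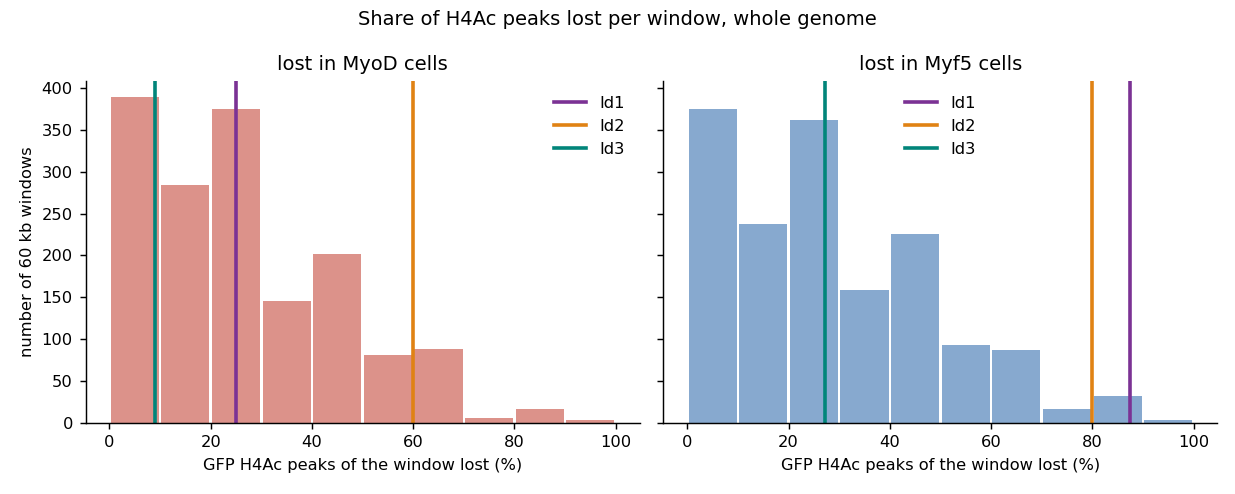
Number of 60 kb windows with at least 5 H4Ac peaks in cells with GFP, by the percentage of those peaks lost in cells with MyoD (left) and Myf5 (right), with vertical lines for the Id1, Id2 and Id3 windows. With Myf5 the Id1 line stands at 87.5% and the Id2 line at 80%, in the upper tail, and the Id3 line at 27.3%.

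Factor sites of the Id windows overlapped H4Ac peaks in higher shares than the whole lists did, by the least for H4Ac of cells with Myf5. Of the 12 MyoD peaks, 7 overlapped an H4Ac peak in cells with MyoD (58.3%, exact 95% interval 27.7% to 84.8%), 3 in cells with Myf5 (25.0%, 5.49% to 57.2%) and 8 in cells with GFP (66.7%, 34.9% to 90.1%). Over the whole MyoD list the shares were 18.6%, 15.1% and 14.4%. The 3 with H4Ac in all cells lay in the Id2 window (1) and the Id3 window (2), and none of the 6 MyoD peaks of the Id1 window overlapped an H4Ac peak in cells with Myf5. Of the 24 Myf5 peaks, 7 overlapped an H4Ac peak with MyoD (29.2%, 12.6% to 51.1%), 4 with Myf5 (16.7%, 4.74% to 37.4%) and 9 with GFP (37.5%, 18.8% to 59.4%). Over the whole Myf5 list the shares were 13.6%, 11.9% and 11.6%. The whole-list values of 15.1%, 13.6% and 11.9% lie inside the intervals of the windows. These intervals are no test, since peaks that lie close together are not independent. The windows were also dense in H4Ac peaks, as given above, and the part of that density in these overlaps was not tested.

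Seen from the acetylated sites, those lost with Myf5 were mostly at Myf5 peaks, as were most GFP peaks of the windows. Of the 18 GFP peaks that overlapped a Myf5 peak, 12 were lost with Myf5, against 24.3% of all GFP peaks at a Myf5 peak. Of the 6 that overlapped none, 2 were lost, against 29.8% of all GFP peaks at no Myf5 peak, which is near the background. That pooled count differed by window: 1 of 1 was lost for Id1, 1 of 1 for Id2 and 0 of 4 for Id3. At Myf5 peaks the losses were 6 of 7, 3 of 4 and 3 of 7. Whether the losses went with Myf5 peaks or with the window was not tested. Of the 12 GFP peaks that overlapped a MyoD peak, 2 were lost with MyoD, against 14.1% of all such peaks. In the windows 75.0% of the GFP peaks overlapped a Myf5 peak and 50.0% a MyoD peak, against 47.0% and 27.4% of the whole list.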

How the data were processed

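The 7 deposited peak lists were used, and 3 input samples entered no comparison. CASAVA 1.8.2, BWA 0.7.5 and the builds mm9 and hg19 stand in the submitters' processing notes. Positions were read as mm9. Not given in the sources used here are the peak caller, the way the 2 replicates behind a factor list were combined, and the source of the control coverage. Coverage (signal) and cutoff are the authors' maximum coverage and threshold per bin of GC content, per the file headers. The authors also give a p-value per peak, which was not used. The other deposited columns give position, width and control coverage, with a control p-value that was not used.

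Peaks were assigned to a window, and to each other, by an overlap of at least 1 bp. Ranks give tied peaks the better rank. Intervals are exact binomial (Clopper-Pearson) at a confidence level of 0.95. Simulated lists of 40000 peaks, with 3 planted shares of overlap, gave back those shares with a largest error of 0 percentage points. The planted overlaps and gaps were wide, so this checks the counting step only. It does not bear on peaks that lie a few bases apart. The windows, members and comparisons were chosen with earlier results of these data known. Covered for each window were the strongest peak of each factor, every peak in the top 10% of its list and every H4Ac peak gained or lost. Some of these are given by coverage alone, without their position. Alternatives were a threshold of 1.5 times the cutoff, the central 40 kb, lists of equal length and an overlap of 50% of the shorter peak. Id1, Smad7 and Hes1 had no promoter matched, and protein sequences were not used here. Scripts ran in Python 3.11.15 (numpy 2.4.6, pandas 2.3.3, scipy 1.17.1); figures were drawn with matplotlib 3.10.9.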

Additional observations from a re-analysis of the deposited data

How the results depend on the processing

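Of 81 values recomputed under the alternatives, 66 stayed within 1.5 times the reported one. The threshold of 1.5 times the cutoff moved 11 of its 22 values. Every count of GFP H4Ac peaks lost with Myf5 was among the 66, and for the Id1 window it was 5 to 7. With coverage at least 1.5 times the cutoff in every list, H4Ac peaks in the windows numbered 9 with MyoD, 2 with Myf5 and 14 with GFP, over 4299 bp with MyoD and 1153 bp with Myf5. Gains were then 0 with each factor, GFP peaks lost with MyoD were 1 for Id2 and 2 for Id3, and factor peaks at H4Ac were 4 for MyoD and 1 for Myf5. Of those 14 GFP peaks, 5 were lost with MyoD and 12 with Myf5, so the share lost rose though the counts changed little. The 1 and 7 of 14 given in the Results had the threshold on the GFP list alone. Dropping weak peaks from the other lists adds losses by construction, and no whole-list share is given for this setting. In the central 40 kb, H4Ac peaks with Myf5 numbered 6 and Id3 peaks lost with MyoD 0. With equal lists, 1 peak was gained with MyoD. With the stricter overlap, 4 MyoD peaks lay at H4Ac with MyoD. Where an alternative drops peaks, lower counts follow from its construction. No replicate could be left out, and no paired analysis was possible because each group has 1 list. Unknown depth limits every call near a cutoff.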
